A study of Mus musculus with 9 samples.

Results

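The 7 genes described here encode enzymes that make or salvage deoxynucleotides, the building blocks of DNA: *Rrm1*, *Rrm2* and *Rrm2b*, the subunits of ribonucleotide reductase, *Tyms* and *Dut*, which lead to thymidylate, and the salvage kinases *Tk1* and *Dck*. They were taken by gene name from the deposited table of 43346 genes, where each name has 1 row, and all 7 were among the 15024 genes with enough counts to be tested. Whole liver of 12-week-old C57/BL6 mice was profiled by bulk RNA-Seq in 9 libraries, 3 for each of 3 groups. Baseline libraries (0 h) came from the liver resected at 70% partial hepatectomy in mice given vehicle, and the other libraries came from the remnant 40 h after that surgery, in mice given vehicle or NSC-87877 (NSC). NSC is a small molecule that inhibits the phosphatases SHP1 and SHP2. It was given at 7.5 mg/kg per dose (15 mg/kg/day), and dosing in all 3 groups began 12 h before surgery. No NSC specimen at 0 h is among these libraries, so both comparisons with baseline share the same 3 vehicle livers, and a response to NSC before surgery was not measured here. The labels do not say whether a baseline specimen and a remnant came from the same mouse.

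A cell that copies its genome must supply 4 deoxynucleotides in balanced amounts. Ribonucleotide reductase makes them from ribonucleotides by pairing a large subunit, RRM1, with a small subunit: RRM2, which accumulates in S phase and is degraded as cells leave mitosis, or RRM2B, a p53-induced subunit that serves resting cells, DNA repair and mitochondria. Thymidylate synthase (TYMS) methylates dUMP to dTMP, and dUTPase (DUT) both supplies that dUMP and keeps uracil out of DNA. In the salvage route, cytosolic thymidine kinase (TK1) phosphorylates thymidine and deoxycytidine kinase (DCK) phosphorylates deoxycytidine and deoxypurine nucleosides. Hepatocytes of the adult liver are mostly quiescent, and after partial hepatectomy many of them enter the cell cycle together.

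The libraries held 23997363 to 42887589 gene-assigned counts, so a count of 3 corresponded to 0.0751 to 0.117 CPM (counts relative to the library total, scaled by TMM factors throughout), far below the lowest value of any of the 7 genes (1.88 CPM). *Mki67*, a marker of cycling cells, measured 1.14, 1.37 and 0.891 CPM in baseline livers 1 to 3, 112, 121 and 87.5 CPM in vehicle remnants 1 to 3 and 61.2, 239 and 160.1 CPM in NSC remnants 1 to 3. All remnants were far above baseline, and NSC remnant 1 was the lowest of the 6. Hepatocyte markers made up 89065 to 125437 CPM of every library. *Ptpn11*, which encodes SHP2, lay between 70.1 and 94.5 CPM in all livers, and *Ptpn6*, which encodes SHP1, between 14.4 and 23.3 CPM. With NSC *Ptpn6* was lower than at baseline (log2 fold change -0.47, edgeR adjusted p = 0.0229), as were 16.5% of tested genes. It was not called against vehicle (-0.28, edgeR adjusted p = 0.291). Since NSC acts on the proteins, these transcripts are no check of the labels. In bulk tissue, fewer cells of a type and less RNA per cell cannot be told apart.

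After hepatectomy with vehicle, 5 of the 7 transcripts rose and none fell. The quasi-likelihood test of edgeR called *Rrm2* (9.04-fold), *Rrm1* (4.27-fold), *Tyms* (3.49-fold), *Dck* (2.596-fold) and *Dut* (1.89-fold) at a Benjamini-Hochberg adjusted p under 0.05, while *Tk1* and *Rrm2b* did not pass. Across all tested genes, 12.7% were called higher and 11.0% lower in the same comparison. The median log2 fold change was 1.38 over the 7 genes and 0.013 over all genes. In each of the 5 that rose, all 3 vehicle remnants lay above all 3 baseline livers, which held for 24.2% of tested genes. With a log2 fold change above 1.5 also required, *Rrm2*, *Rrm1* and *Tyms* remained, 3 of 7, against 5.03% of all genes.

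**Figure D1:**
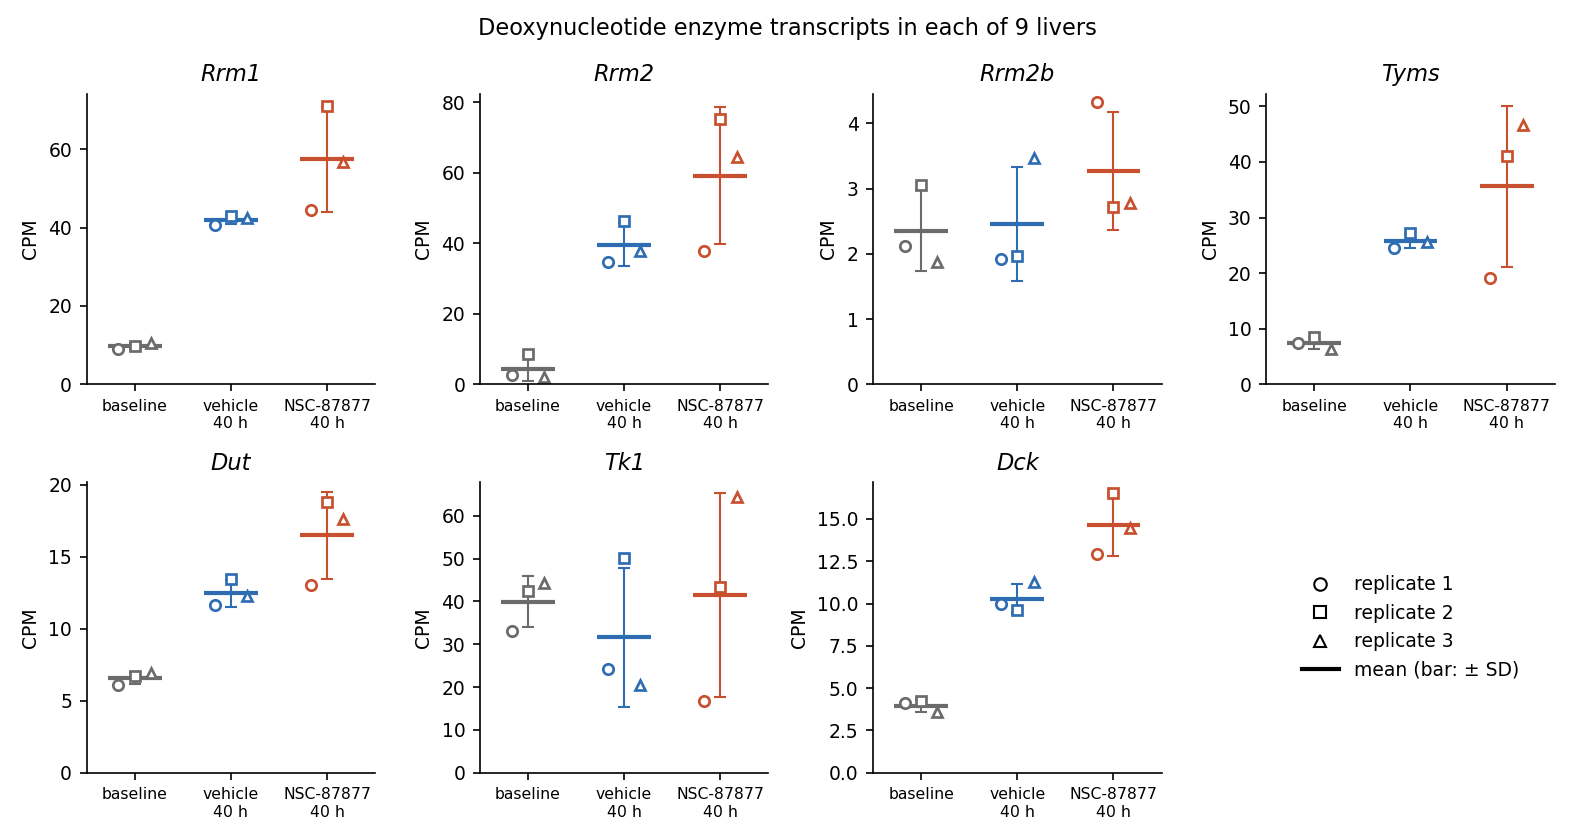
CPM (TMM-scaled, linear axis from 0) of the 7 transcripts in each liver, with a symbol for each replicate number, a line at the group mean and a bar of 1 SD (n = 3). In 5 panels the 3 baseline livers lie below all 6 remnants, whereas in *Rrm2b* and *Tk1* the 3 groups overlap.

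The reductase subunits separated by role. *Rrm1*, the large subunit that carries the active site (chr7:102441695-102469771, plus strand, GRCm38), measured 9.13, 9.77 and 10.6 CPM in baseline livers, 40.8, 42.97 and 42.5 CPM in vehicle remnants and 44.4, 71.2 and 56.8 CPM in NSC remnants. The 3 groups did not overlap, since NSC remnant 1, the lowest of its group, still lay above the highest vehicle remnant. The log2 fold change of *Rrm1* with vehicle was 2.10 (SE 0.17, edgeR adjusted p = 2.59e-05).

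*Rrm2*, the S phase small subunit (chr12:24708241-24714146, plus strand), measured 2.496, 8.49 and 2.11 CPM in baseline livers, 34.8, 46.4 and 37.6 CPM in vehicle remnants and 37.6, 75.3 and 64.6 CPM in NSC remnants. Baseline liver 2 stood apart from the other two baseline livers, though its *Mki67* value (1.37 CPM) was close to theirs. Every remnant was still more than 4 times that liver. *Rrm2* had the largest change of the 7, with a log2 fold change of 3.18 (SE 0.55, edgeR adjusted p = 0.00527), which was 4.10 when baseline liver 2 was left out.

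*Rrm2b*, the p53-induced small subunit (chr15:37923952-37961318, minus strand), was the least abundant of the 7, at 2.12, 3.05 and 1.88 CPM in baseline livers, 1.93, 1.97 and 3.47 CPM in vehicle remnants and 4.32, 2.72 and 2.78 CPM in NSC remnants. The 3 groups overlapped. Its annotated exons share 734 bases (8.04%) with *Gm49085*, an antisense gene that was not matched in the table, and *Gm3362*, a pseudogene, overlaps its span with no exon base in common. Its log2 fold change with vehicle was 0.05 (95% interval -0.66 to 0.76, edgeR adjusted p = 0.929). Among 10 other p53 targets, 6 rose and 2 fell with vehicle, and their median log2 change was 0.83. Of all tested genes, 12.7% were called higher and 11.0% lower in that comparison. *Eda2r*, a p53-induced death receptor, rose by 3.35 on the log2 scale, from a mean of 0.232 to 2.41 CPM. Its baseline level was near the 3-count floor. *Phlda3* rose by 2.55 and *Cdkn1a*, the cyclin-dependent kinase inhibitor p21, by 2.00, whereas *Sesn2* (-1.03) and *Bbc3* (-1.01), which encodes the proapoptotic protein PUMA, fell. The call of *Cdkn1a* held in 10 of 16 alternative fits, and its change was 1.58 without baseline liver 2, 2.63 without baseline liver 1 and 1.99 without baseline liver 3 (edgeR adjusted p = 0.0942).

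Both enzymes that lead to thymidylate rose, by different amounts. *Tyms* (chr5:30058202-30073617, minus strand) measured 7.36, 8.43 and 6.34 CPM in baseline livers, 24.6, 27.2 and 25.5 CPM in vehicle remnants and 19.2, 41.1 and 46.6 CPM in NSC remnants. The vehicle remnants lay close together, whereas NSC remnant 1 was below all of them and NSC remnants 2 and 3 were above. The log2 fold change of *Tyms* with vehicle was 1.80 (SE 0.28, edgeR adjusted p = 0.00117).

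*Dut* (chr2:125247190-125258608, plus strand) measured 6.097, 6.72 and 6.93 CPM in baseline livers, 11.7, 13.4 and 12.3 CPM in vehicle remnants and 13.05, 18.8 and 17.6 CPM in NSC remnants. All remnants were above all baseline livers, and its log2 fold change with vehicle, 0.92 (SE 0.17, edgeR adjusted p = 0.00292), was the smallest of the 5 that passed.

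The salvage kinases parted. *Dck* (chr5:88764996-88783281, plus strand) measured 4.11, 4.21 and 3.56 CPM in baseline livers, 9.96, 9.64 and 11.3 CPM in vehicle remnants and 12.9, 16.5 and 14.5 CPM in NSC remnants, with no overlap between any of the 3 groups. The log2 fold change of *Dck* with vehicle was 1.38 (SE 0.17, edgeR adjusted p = 0.000293). *Tk1* (chr11:117815526-117826092, minus strand) measured 33.1, 42.4 and 44.4 CPM in baseline livers, 24.2, 50.2 and 20.4 CPM in vehicle remnants and 16.8, 43.4 and 64.4 CPM in NSC remnants. Vehicle remnants 1 and 3 and NSC remnant 1 were below every baseline liver, vehicle remnant 2 and NSC remnant 3 were above every baseline liver, and NSC remnant 2 was within their range. The log2 fold change of *Tk1* with vehicle was -0.34 (95% interval -1.50 to 0.82, edgeR adjusted p = 0.675).

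**Figure D2:**
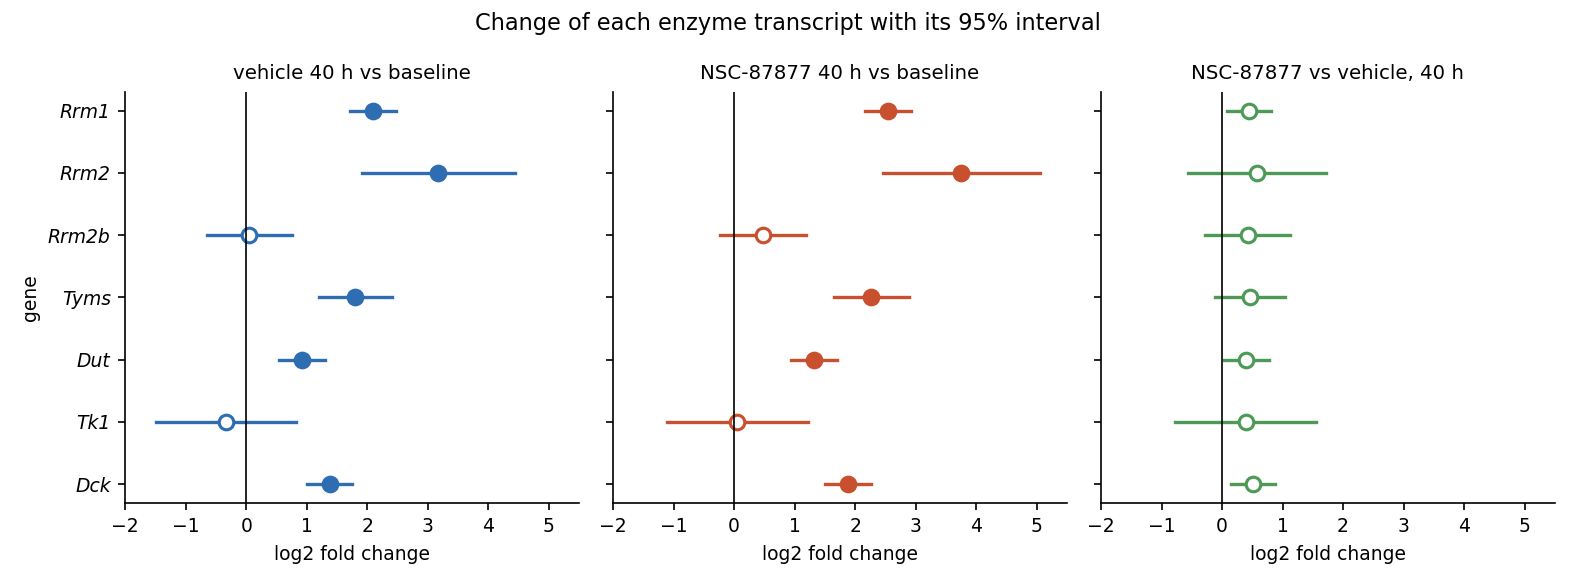
Log2 fold change of each transcript (x axis) in the 3 comparisons, with 95% intervals from the edgeR fit. Filled circles passed an adjusted p of 0.05, as 5 of 7 did in each comparison with baseline, and open circles did not, as for all 7 in the direct comparison.

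With NSC, the same 5 transcripts passed against the shared baseline and none of the 7 fell, where 18.2% of all tested genes were called higher and 16.5% lower. All 3 NSC remnants were above all 3 baseline livers for each of the 5, as for 24.0% of all genes. The median log2 fold change of the 7 was 1.88. *Rrm2* had a log2 fold change of 3.75 (SE 0.56, edgeR adjusted p = 0.00193, and 4.68 without baseline liver 2), *Rrm1* of 2.55, *Tyms* of 2.27, *Dck* of 1.88 and *Dut* of 1.32. Those with a log2 fold change above 1.5 were 4 of 7, *Dut* being the one below it, against 5.38% of all genes. *Rrm2b* (0.48, edgeR adjusted p = 0.272) and *Tk1* (0.05, edgeR adjusted p = 0.946) again did not pass.

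The direct comparison of NSC with vehicle at 40 h asked whether the drug altered these transcripts in the regenerating liver. None of the 7 passed the test by edgeR or by DESeq2, and 3 had an unadjusted edgeR p under 0.05 (*Dck*, *Rrm1* and *Dut*), as did 19.5% of all genes. After adjustment over all genes, edgeR called 0% higher and 0.0399% lower (6 genes). All 7 estimates were above 0, between 0.39 for *Tk1* and 0.58 for *Rrm2* on the log2 scale, with a median of 0.45 beside 0.015 over all genes. NSC remnants lay wholly above vehicle remnants for *Rrm1* and *Dck*, 2 of 7, against 10.3% of all genes.

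The intervals bound these differences. *Dck* differed by 0.51 on the log2 scale (95% interval 0.15 to 0.87, edgeR adjusted p = 0.142). *Rrm1* differed by 0.45 (0.09 to 0.81, edgeR adjusted p = 0.176) and *Dut* by 0.40 (0.04 to 0.77, edgeR adjusted p = 0.22). For the other 4 the interval included 0, and it was widest for *Tk1* (-0.77 to 1.55) and *Rrm2* (-0.56 to 1.72). An increase of *Rrm2* by 2-fold over vehicle remnants (a log2 difference of 1) is within its interval.

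NSC remnant 1 was the lowest NSC remnant for *Rrm1*, *Rrm2*, *Tyms*, *Dut*, *Dck* and *Tk1*, and the highest for *Rrm2b*. The same library had the lowest *Mki67* of the remnants and the highest summed macrophage marker level of all 9 libraries (453 CPM over 7 markers, against 158 to 219 in baseline livers, 148 to 275 in vehicle remnants and 286 in the lowest NSC remnant). It also had the highest summed endothelial (226 CPM) and neutrophil (19.1 CPM) marker levels of all 9 libraries. Its summed hepatocyte marker level (92964 CPM) was the lowest of the NSC remnants. The part of any of these in the results was not tested. Without that library, *Tyms* (log2 difference 0.76, edgeR adjusted p = 0.0136) and *Rrm1* (0.60, edgeR adjusted p = 0.0291) passed the test against vehicle, in a fit that called 3.73% of all genes higher. Leaving out the other NSC remnants moved the estimates the other way, to 0.27 for *Rrm1* without NSC remnant 2 (edgeR adjusted p = 0.464) and 0.22 for *Tyms* without NSC remnant 3 (edgeR adjusted p = 0.678).

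Promoter windows of the 7 genes, where matched, were read on both strands for 3 letter patterns that recur in cell cycle promoters. These were the E2F core (TTCCCGC or TTGGCGC or TTCGCGC or TTGCCGC), the CCAAT box (CCAAT) and the CHR element (TTTGAA). RefSeq windows (GRCm38.p6, from 250 bases before to 50 after the start site) were matched for 6 of the 7 genes, all but *Rrm2b*. *Rrm1* and *Rrm2*, the partner subunits with the largest changes, were the ones with an E2F core, which 9.57% of all 32817 promoter windows hold. They are also the ones with a CCAAT box (37.4% of all windows), 2 copies in *Rrm1* and 1 in *Rrm2*. *Dck* holds 1 CHR on the reverse strand (17.9% of all windows), and the windows of *Tyms*, *Dut* and *Tk1* hold none of these letters. The *Dut* window (chr2:125247265-125247564) lies inside the annotated gene, which starts at 125247190. Bases before that annotated start were therefore not read for *Dut*. A match describes the letters and is no measure of binding. The windows of *Rrm1* (chr7:102441445-102441744) and *Rrm2* (chr12:24708004-24708303), both plus strand, are given 5′ to 3′ with the E2F core (on the reverse strand in *Rrm2*) and CCAAT letters in capitals.
Rrm1: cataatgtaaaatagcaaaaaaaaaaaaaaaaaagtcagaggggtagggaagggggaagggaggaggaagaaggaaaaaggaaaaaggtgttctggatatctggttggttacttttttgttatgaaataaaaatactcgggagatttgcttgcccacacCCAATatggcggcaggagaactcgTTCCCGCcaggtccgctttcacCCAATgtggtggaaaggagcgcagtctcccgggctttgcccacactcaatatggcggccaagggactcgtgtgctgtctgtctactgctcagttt
Rrm2: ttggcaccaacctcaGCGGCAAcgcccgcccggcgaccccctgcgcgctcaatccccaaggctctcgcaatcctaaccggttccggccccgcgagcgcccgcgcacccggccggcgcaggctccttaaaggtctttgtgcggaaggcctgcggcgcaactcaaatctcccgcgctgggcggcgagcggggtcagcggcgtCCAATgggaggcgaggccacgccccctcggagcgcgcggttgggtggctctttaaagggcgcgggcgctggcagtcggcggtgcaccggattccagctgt

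The *Tk1* locus is shared with other transcripts. By GENCODE M21, *Afmid*, the kynurenine formamidase gene, starts inside *Tk1* on the opposite strand, with a span of 169 bases and 83 exon bases in common (1.597% of the exon bases of *Tk1*). *Gm20708* also lies on the opposite strand, and *Tk1* sits wholly inside 1 of its introns, with no exon base in common. The window around the *Tk1* start (chr11:117825965-117826264, minus strand, GRCm38.p6) is given 5′ to 3′ to show how far the genes interlock, with the 128 bases that *Tk1* and *Afmid* both span in capitals.
Tk1: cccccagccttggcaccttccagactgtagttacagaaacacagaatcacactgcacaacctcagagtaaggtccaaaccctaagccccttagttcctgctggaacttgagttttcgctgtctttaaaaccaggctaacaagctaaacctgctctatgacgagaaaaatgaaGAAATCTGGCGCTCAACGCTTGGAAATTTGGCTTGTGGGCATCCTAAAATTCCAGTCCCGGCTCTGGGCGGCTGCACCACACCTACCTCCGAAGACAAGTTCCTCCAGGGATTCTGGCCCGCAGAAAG

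Both opposite genes fell after hepatectomy. *Afmid* measured 166, 167 and 201 CPM in baseline livers, 54.96, 94.7 and 55.1 CPM in vehicle remnants and 54.9, 53.99 and 89.1 CPM in NSC remnants. The log2 change of *Afmid* was -1.39 with vehicle (SE 0.25, edgeR adjusted p = 0.00275) and -1.43 with NSC. *Gm20708* measured 103, 103 and 119 CPM in baseline livers, 33.7, 57.01 and 32.6 CPM in vehicle remnants and 34.1, 36.7 and 56.9 CPM in NSC remnants, and its log2 change was -1.40 in vehicle remnants and -1.35 in NSC remnants. In both genes every remnant was below every baseline liver. Vehicle remnant 2 and NSC remnant 3, the highest of their groups for *Tk1*, were also the highest for *Afmid* and *Gm20708*. Every exon of *Gm20708* overlaps an exon of *Afmid* or of *Syngr2*, a further gene on that strand. The profiles of *Afmid* and *Gm20708* therefore cannot be taken as independent. The library kit keeps strand, the strand setting used in counting is not given in the sources used here, and the part of the opposite genes in the counts of *Tk1* or *Rrm2b* was not tested.

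**Figure D3:**
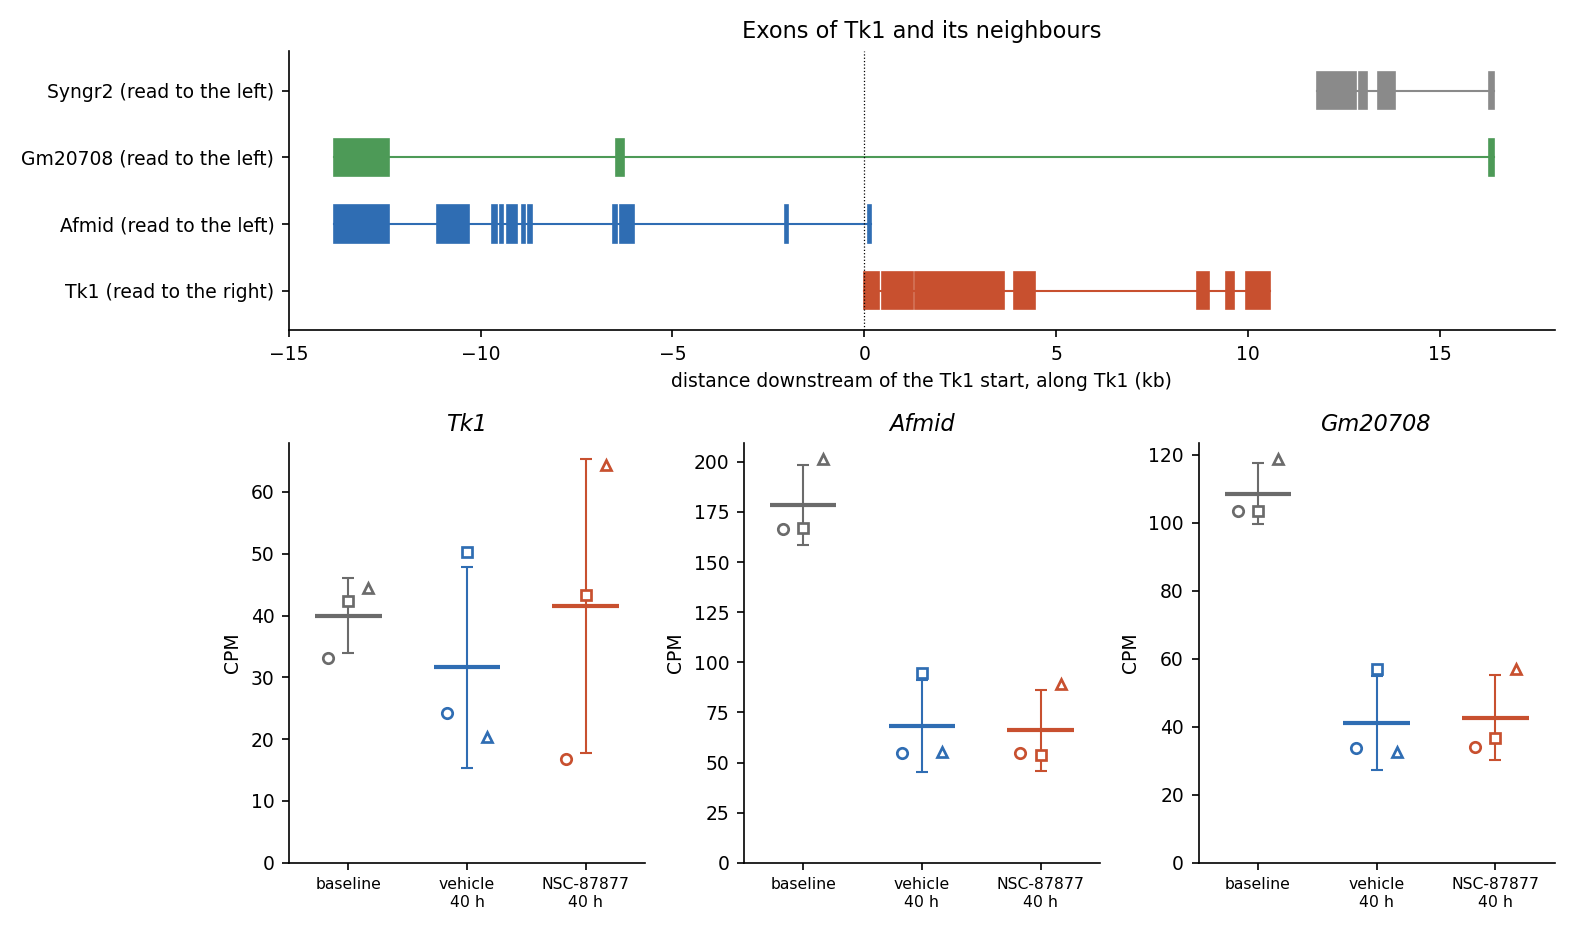
Top, exons (boxes) of *Tk1* and of 3 genes on the opposite strand, by distance in kb downstream of the *Tk1* start. Bottom, CPM per liver with group mean and SD (n = 3), where *Afmid* and *Gm20708* fall in every remnant and *Tk1* spreads to either side of baseline.

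Per length, the order of the 7 transcripts changed. In baseline livers *Tk1* had the highest mean FPKM (7.43), above all livers of the next gene, *Dut* (2.64), followed by *Rrm1* (2.38), *Rrm2* (1.52), *Dck* (1.24) and *Tyms* (1.17), whose neighbouring ranges overlapped, and *Rrm2b* was lowest (0.352) and apart. In vehicle remnants *Rrm2* led (13.8), followed by *Rrm1* (10.2), *Tk1* (5.80), *Dut* (5.02), *Tyms* (4.11), *Dck* (3.26) and *Rrm2b* (0.371). There, only *Tk1* and *Dut* overlapped among neighbours. In NSC remnants the order of the means was the same, from 22.5 for *Rrm2* to 0.544 for *Rrm2b*, and only *Rrm2b* stood apart from its neighbour. The length behind the deposited FPKM of *Tk1* is 5198 bases, whereas its 1 protein-coding transcript in GENCODE M21 has 1440 bases, so its rank depends on which transcripts the reads came from. For *Rrm1* and *Dck* the deposited length equals that of the coding transcript, and for the other 4 it is 1.26 to 2.36 times as long.

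Ratios within a liver do not depend on library scaling. *Rrm2* per *Rrm2b*, the small subunit of dividing cells over that of resting cells, was 2.74, 6.46 and 2.61 (FPKM ratio) in baseline livers, 41.9, 54.7 and 25.2 in vehicle remnants and 20.2, 64.4 and 54.0 in NSC remnants. Each remnant had at least 3 times the highest baseline ratio. On the log2 scale the mean was 1.84 ± 0.74 (SD, n = 3) at baseline, 5.27 ± 0.57 with vehicle and 5.37 ± 0.90 with NSC, and both differences from baseline had an exact two-sided permutation p of 0.1, the smallest that 3 against 3 livers can give (0.188 after adjustment over 15 ratio comparisons). *Rrm2* per *Rrm1* overlapped between remnants and baseline because baseline liver 2 (1.25) lay above vehicle remnant 1 (1.23) and NSC remnant 1 (1.22), with exact permutation p = 0.2 in both comparisons. In all 6 remnants this ratio was between 1.22 and 1.64.

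The transcript ratio of the 2 thymidine routes was lower in remnants, where *Tyms* rose and *Tk1* was not called. *Tk1* per *Tyms* was 5.27, 5.90 and 8.21 in baseline livers, 1.15, 2.16 and 0.934 in vehicle remnants and 1.03, 1.24 and 1.62 in NSC remnants, without overlap. The mean log2 difference from baseline was -2.26 with vehicle and -2.32 with NSC (exact permutation p = 0.1 for each). *Dut* per *Tyms* was also lower in every remnant than in any baseline liver (log2 difference -0.89 with vehicle and -0.87 with NSC), and *Dck* per *Tk1* was higher in every remnant (1.82 and 2.02). Every one of these 4 differences had an exact permutation p of 0.1. Between NSC and vehicle remnants all 5 ratios overlapped, with log2 differences of -0.06 to 0.20 and exact permutation p of 0.7 to 1.

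**Figure D4:**
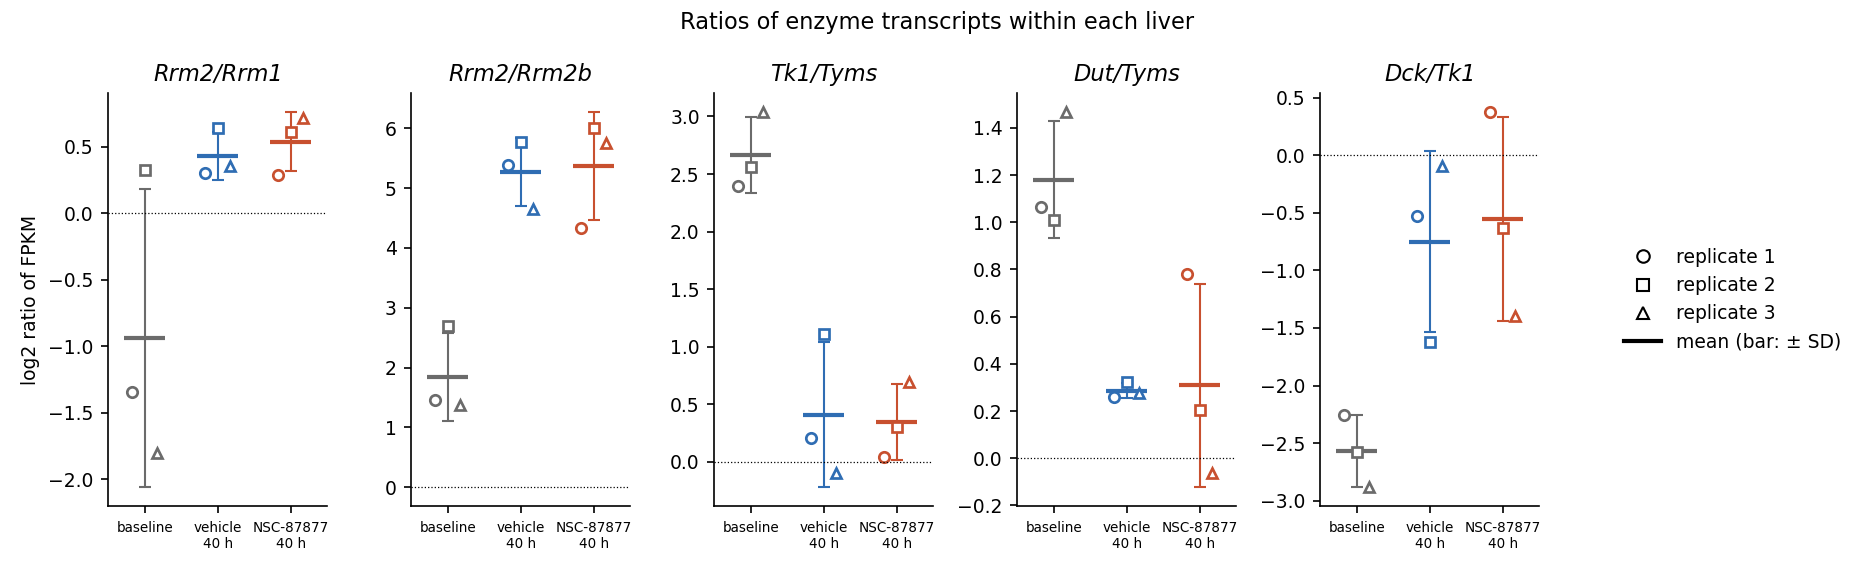
Log2 ratio of FPKM within each liver for 5 pairs of enzymes, by group, with group mean and SD (n = 3, dotted line at equal FPKM). Baseline livers stand apart from the 6 remnants in 4 of 5 pairs, and baseline liver 2 overlaps them in *Rrm2*/*Rrm1*.

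Of 51 other genes of the wider nucleotide pathways (kinases, breakdown, folate cycle and de novo synthesis), 12 rose and 7 fell with vehicle (median log2 fold change 0.12), and 12 rose and 8 fell with NSC (0.03). These are 23.5% higher and 13.7% lower with vehicle, where all genes gave 12.7% and 11.0%, and 23.5% higher and 15.7% lower with NSC, where all genes gave 18.2% and 16.5%. Of the 55 calls of single genes that the rule names from these lists and from the MCM and p53 lists, 37 passed in every alternative fit and 18 were lost in at least 1. Among 9 other kinases, *Dtymk*, the thymidylate kinase that acts on the product of both TYMS and TK1, rose by 1.03 on the log2 scale in vehicle remnants and by 1.45 in NSC remnants. *Nme1*, a nucleoside diphosphate kinase, rose by 0.89 and 0.77, and *Cmpk1*, the UMP-CMP kinase, rose with NSC (0.78). *Nme2* rose with vehicle (0.53), a call that held in 9 of 16 alternative fits. *Tk2*, the mitochondrial thymidine kinase, fell by 0.68 and 0.62, and *Cmpk2*, a mitochondrial kinase, fell with vehicle (-1.16). In all, 3 of the 9 rose and 2 fell with vehicle, and 3 rose and 1 fell with NSC.

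Breakdown and sanitation enzymes gave 2 of 14 that rose and 2 that fell in each comparison with baseline. *Tymp*, thymidine phosphorylase, changed by -1.26 in vehicle remnants and -1.69 in NSC remnants, and *Dpyd*, which starts pyrimidine catabolism, by -0.60 and -0.75. Vehicle remnants overlapped baseline livers for *Tymp*, and that call held in 4 of 16 alternative fits. *Itpa*, which removes inosine triphosphate, rose by 0.62 and 0.75. *Dctd*, the dCMP deaminase that also supplies dUMP, rose with vehicle from 0.127 to 0.544 CPM, near the 3-count floor.

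In the folate cycle that feeds TYMS, 2 of 10 rose and 2 fell with vehicle, and 2 rose and 4 fell with NSC. *Mthfd2*, a mitochondrial folate enzyme, rose by 3.25 and 2.97. The cytosolic enzymes *Shmt1* (-0.86 and -0.95) and *Mthfd1* (-0.71 and -0.94) fell in both comparisons, and the reduced folate carrier *Slc19a1* fell with NSC (-1.23). Without baseline liver 2, the change of *Slc19a1* was -0.58 (edgeR adjusted p = 0.145).

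De novo pyrimidine synthesis had 3 of 5 genes that rose with vehicle and 2 with NSC. The CTP synthases *Ctps* (1.65 and 1.53) and *Ctps2* (0.87 and 0.96) rose in both. *Cad*, whose product carries the first 3 steps of that pathway, rose with vehicle (1.02) and measured 11.6, 13.01 and 18.4 CPM in baseline livers, 34.1, 28.6 and 24.7 CPM in vehicle remnants and 11.8, 12.7 and 10.8 CPM in NSC remnants. It was the single gene of the 51 called between NSC and vehicle (log2 difference -1.31, SE 0.19, edgeR adjusted p = 0.047).

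Of 13 purine synthesis genes, 2 rose and 1 fell with vehicle, and 3 rose and 1 fell with NSC. *Impdh1* (0.88) and *Pfas* (0.64) rose with vehicle, and those calls held in 11 and 12 of 16 alternative fits. With NSC, *Adss* (1.00), *Prps2* (0.60) and *Gmps* (0.43) rose, and those calls held in 16, 9 and 8 of 16 fits. *Adssl1*, an adenylosuccinate synthase, fell in both (-1.34 and -1.62). By contrast, all 6 genes of the MCM helicase, which opens DNA for replication, rose in both comparisons, the median log2 change being 2.17 in vehicle remnants and 2.22 in NSC remnants. *Mcm5* rose by 3.999 and 3.82, and *Mcm6* by 3.03 and 3.42. Between NSC and vehicle the MCM median was 0.06, with 4 of 6 estimates above 0 and none called. For the deoxynucleotide enzymes it was 0.45, with 7 of 7 above 0 and again none called. In that comparison the cell cycle genes *Mki67* (0.52), *Top2a* (0.52), *Pcna* (0.37) and *E2f1* (0.23) were also above 0 and not called. Estimates above 0 were thus not particular to the 7 enzymes.

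**Figure D5:**
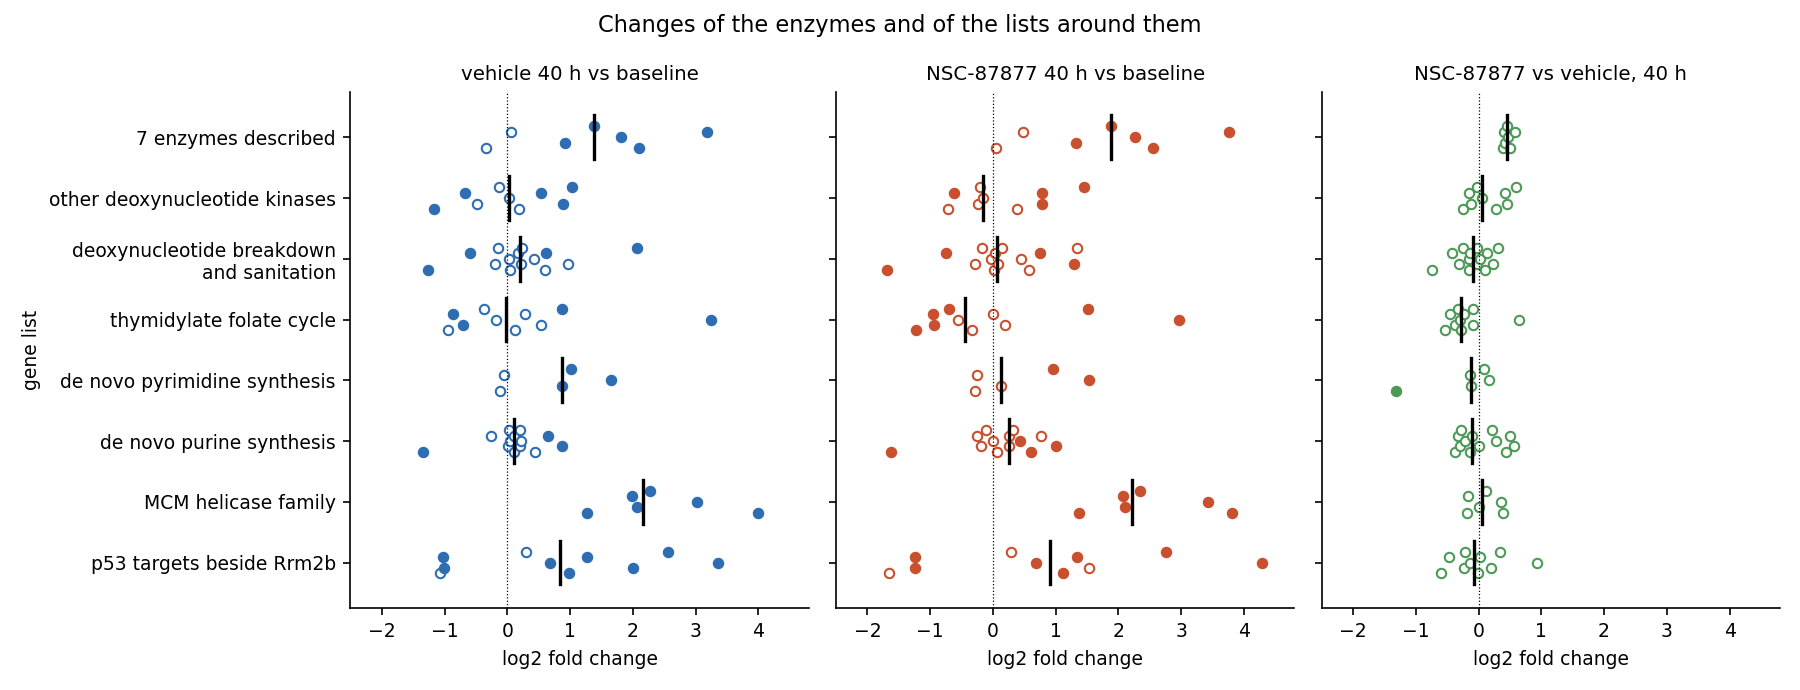
Log2 fold change of single genes (circles, filled where the adjusted p was under 0.05) in the 7 enzymes and 7 other lists, with a line at each list's median, in 3 comparisons. Against baseline the MCM genes and 5 of the 7 enzymes are filled and to the right of 0, the nucleotide lists spread to both sides, and *Cad* is the filled circle in the direct comparison.

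Markers of other liver cells were measured beside these changes. For scale, 12.7% of all tested genes were called higher and 11.0% lower with vehicle, and 18.2% and 16.5% with NSC. A single call in a list of 5 or 6 markers is near these shares. Macrophage markers had 2 of 7 genes that rose with vehicle and 4 of 7 with NSC. Cholangiocyte markers rose in 4 of 5 and 3 of 5, from 37.8 to 40.6 CPM summed at baseline to 76.0 to 114 CPM with vehicle and 79.0 to 121 CPM with NSC. Stellate markers rose in 4 of 6 with vehicle (79.9 to 85.7 CPM at baseline, 118 to 220.1 CPM with vehicle) and in none with NSC (67.1 to 117 CPM). Of 4 tested neutrophil markers, none was called with vehicle and 2 rose with NSC, with a summed level of at most 19.1 CPM in any library. *Ly6g* and *Mpo* had too few counts to be tested, and *Mpo* had 3 counts or fewer in every library. Hepatocyte markers fell in 1 of 6 with vehicle and 2 of 6 with NSC, and endothelial markers in 1 of 6 with vehicle and none with NSC. Lymphocyte markers (0.591 to 7.59 CPM summed) fell in 2 of 5 and 1 of 5, erythroid markers (99.5 to 312 CPM) fell in 2 of 5 each time, and no marker was called between NSC and vehicle. Their part in the changes of the 7 enzymes was not tested.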

How the data were processed

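Whole-liver RNA-Seq libraries (Illumina TruSeq Stranded mRNA) were aligned with STAR 2.6.1 and counted per gene with featureCounts of Subread 1.5.1, per the submitters' processing notes. Those notes name hg38, but the identifiers and coordinates are mouse (GRCm38). The authors deposited raw counts and FPKM values (counts per gene length and library total). Counts were tested with edgeR 4.0.16 (limma 3.58.1, R 4.3.3): TMM factors, filterByExpr, 1 robust quasi-likelihood fit of all 9 libraries by group, Benjamini-Hochberg adjustment over 15024 genes. SE is the log2 fold change divided by the square root of F. Simulated 4-fold and 8-fold changes were used to test the code. Ratios of deposited FPKM were compared by exact permutation. Python 3.11.15, pandas 2.3.3, scipy 1.17.1, matplotlib 3.10.9 and blastn 2.17.0 served for the rest, and DESeq2 1.42.0 as an alternative.

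The 7 genes and the gene lists were chosen with earlier results of these data known. Besides all 7, up to 3 called genes per list, direction and comparison were named, as was every list gene called between NSC and vehicle, and for each of the 7 the 3 genes with the most similar profile. *Adgre1* was not matched by name, and 3 genes of the lists are not reported here by name. With 3 numbered replicates per group, edgeR p-values weigh a group difference against the spread between these libraries. Same-numbered libraries were treated as unpaired. Their deviations from group means correlated at -0.05 to 0.13, over 0.1 in 1 of 9 pairs. Those of differently numbered libraries correlated at -0.12 to 0.07, so these values cannot decide whether replicate numbers paired samples. No library duplicated another of its group (chi-square of 24.9 to 151 per gene). Intervals cover the spread between libraries, and the 3-count floor covers counting error only.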

Additional observations from a re-analysis of the deposited data

Results flagged for a closer look

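*Cad* encodes the enzyme of the first 3 steps of pyrimidine synthesis. It drew attention because its level 40 h after hepatectomy differed between the treatments in the direct comparison. It rose over baseline with vehicle (1.02 on the log2 scale, edgeR adjusted p = 0.00296) and was not called with NSC (-0.29, edgeR adjusted p = 0.267), and the direct log2 difference between NSC and vehicle was -1.31 (edgeR adjusted p = 0.047). All 3 NSC remnants were below all 3 vehicle remnants. Over 16 alternative fits the difference ranged from -1.42 to -1.18, and it passed in 7 of them, with adjusted p between 7.43e-06 and 0.243. No NSC liver at 0 h is among these libraries, so a difference before surgery and a different response to it cannot be told apart. The cause was not tested.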

How the results depend on the processing

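The 5 transcripts that rose against baseline passed in all 16 alternative fits of each comparison, and *Rrm2b* and *Tk1* passed in none. With an absolute log2 fold change above 1.5 also required, 3 of the 7 rose with vehicle. Between NSC and vehicle, leaving out 1 library gave 0 to 2 of the 7 higher, 2 of them without NSC replicate 1. *Tk1* between NSC and vehicle ranged from -0.07 (without NSC replicate 3) to 0.89 (without vehicle replicate 2). With the replicate number as a block, 5 of the 7 rose in each comparison with baseline and 0 between NSC and vehicle, and no call of the 7 changed. All-gene calls were 3564, 5207 and 6 in the 3 comparisons, 3578, 5178 and 11 with the replicate block, and 1085, 1222 and 3 with the fold threshold. Between NSC and vehicle they were 758 by DESeq2, 221 with every gene of at least 1 count, 4 with RLE factors and 1 with library size only, and single libraries left out gave 0 to 994 (994 without NSC replicate 1, 111 without vehicle replicate 3). Library size only moved the median of all genes to 0.15 for NSC against baseline and 0.14 for NSC against vehicle, and the 7 enzymes then differed by 0.53 to 0.70 between NSC and vehicle, beside 0.39 to 0.58 with TMM factors. Precision is set by 3 livers per group.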

Other observations

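The tested genes whose 9-library profile was closest to each enzyme, by root-mean-square difference of log2 CPM centred on each gene's mean, were found by the same rule for all 7. Nearest to *Rrm1* were *Wdhd1* (0.11), *Cep128* (0.16) and *Prim1* (0.18), the last a DNA primase subunit, and nearest to *Dck* were *Siah1b* (0.09), *Haus6* (0.13) and *Pcna* (0.16), the replication clamp. Nearest to *Rrm2* were *Dsn1* (0.37), *Rad51b* (0.37) and *Zwilch* (0.39), a kinetochore protein like DSN1, and none was as close as the neighbours of the other enzymes. *Tyms* was nearest to *Ndc1* (0.12), *Dynlt1f* (0.13) and *Chek2* (0.20), a checkpoint kinase, and *Dut* to *Rfwd3* (0.13), *Ywhah* (0.14) and *Gstcd* (0.14). *Rrm2b* was nearest to *Zfp873* (0.10), *Hus1* (0.16), a DNA damage clamp subunit, and *Zfp65* (0.17), and *Tk1* to *Gm6091* (0.10), *Rpl29-ps2* (0.22) and *Mroh2a* (0.26). Among the enzymes themselves, *Dck* and *Dut* were the closest pair (0.28), followed by *Rrm1* and *Tyms* (0.30), and *Rrm2* and *Tk1* the farthest (1.98).

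Close copies of 4 coding sequences were found among GENCODE M21 transcripts (at least 200 aligned bases at 90% identity or more). *Rrm2b* aligned to *Gm8616* over 1051 bases at 96.1%, *Rrm2* to *Gm48455* over 419 bases at 95.5%, *Tyms* to *Tyms-ps* over 935 bases at 93.9%, and *Tk1* to *Gm5742* over 288 bases at 91.0%. *Gm5742* had 0 counts in all 9 libraries, and the other 3 copies were not matched in the table, so how reads shared with them were counted was not tested.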
